A study of Rattus norvegicus with 13 samples.

Results

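Genes of oligodendrocyte precursor cells and of the lineage they form were followed in rat hypothalamus after a high-fructose diet. The 10 genes were taken by name, C1ql1, Pdgfra, Cspg4, Olig1, Olig2, Sox8, Sox10, Gpr17, Nkx2-2 and Ptprz1, and each matched 1 row of the 17366 in the expression table. All 10 were among the 11837 genes tested. The tissue came from 13 rats, of which 6 were fed a diet with 55% fructose and 7 a standard chow with 0.30% fructose. Both diets were given from postnatal day 25. On day 79 all rats were fasted overnight, and on day 80 they were killed 1 h after receiving, into the peritoneum, either saline or 2 g per kg of glucose. The rats were pair-housed. The sources used here name neither the sex of each rat nor its cage mate, nor which of the 13 received glucose. The p-values take the 13 rats as independent, and whether sex or injection was shared evenly between the diets could not be checked.

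Oligodendrocyte precursor cells are dividing glia that persist in the adult brain, hypothalamus included, and give rise to the cells that make myelin. The growth factor receptor Pdgfra and the proteoglycan Cspg4, also called NG2, mark the precursors. Olig1, Olig2 and Sox10 are transcription factors of the whole lineage, Nkx2-2 and Gpr17 belong to cells leaving the precursor state, and myelin genes such as Mbp follow later. C1ql1 is a secreted protein of the C1q family, best known from mouse cerebellum as the ligand by which climbing fibres act on the adhesion receptor Bai3, and its transcript is also found in precursor cells.

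Expression was given as FPKM, a fragment count divided by transcript length and library size, so levels can be compared between genes. The total per rat lay between 556902 and 608058 FPKM, and what a single read is worth was roughly estimated at 0.865 to 1.21 times its worth in chow replicate 1. Hypothalamic peptide and regulator genes (Hcrt, Pmch, Oxt, Avp, Pomc, Agrp, Trh, Crh, Sim1 and Nkx2-1) were all above 0, and their summed level ranged over 1588 to 6983 FPKM in fructose rats and 4093 to 9510 FPKM in chow rats. Several groups of genes from other cells moved with the diet. For the midbrain dopamine list, all 12 tested genes rose, and the summed level of its 13 matched genes ran over 210 to 592 FPKM in fructose rats and 80.7 to 117 FPKM in chow rats. Among the 12, Pitx3, Foxa2 and Chrnb3 averaged 0.082, 0.248 and 0.156 FPKM on chow, under the filter of 0.5 FPKM. They were tested only through their level in fructose rats, so their rise was partly set by the filter. The blood list, with 5 of 6 tested genes rising and Rhag listed at 0 in all rats, summed to 516 to 2317 FPKM in fructose rats and 246 to 656 FPKM in chow rats. Of its rising genes Alas2, at a mean of 0.421 FPKM on chow, likewise passed the filter only through the fructose rats. Of the meningeal and fibroblast list, in which Col1a2 was listed at 0 in all rats, 6 of 11 tested genes rose (607 to 955 FPKM in fructose rats, 382 to 702 FPKM in chow rats), whereas 9 of 15 genes of the thalamus list fell and 1 rose (606 to 970 FPKM in fructose rats, 688 to 1368 FPKM in chow rats). The meningeal sum was mostly 1 gene, Ptgds, with a mean of 733 of 794 FPKM on fructose and 500 of 530 FPKM on chow. Many of these meningeal and thalamic calls were lost when 1 rat was left out. The number of genes called over the whole table fell too, from 466 to 83 without fructose replicate 4 and to 89 without chow replicate 2. The fold changes kept their direction, as for Igf2 (1.11 to 1.47) and Ntng1 (-1.37 to -1.03). Of the 6 meningeal calls 0 were kept without fructose replicate 4, 1 without fructose replicate 6 or chow replicate 4, and 2 or 3 without fructose replicates 1 or 3 or chow replicates 2, 3, 5 or 7. Of the 10 thalamic calls 2 were kept without fructose replicates 4 or 6 or chow replicates 2 or 4, 3 without fructose replicate 2 or chow replicate 7, and 5 without chow replicate 5. With any rat left out, at least 10 of the 12 midbrain dopamine calls and 4 of the 5 blood calls were kept. The part of other tissue in the differences below was not tested.

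Of the 10 lineage genes 3 rose on fructose (C1ql1, Nkx2-2 and Sox8) and 7 did not pass the test, which was limma with an adjusted p under 0.05 over all genes tested. Over all genes 3.94% passed this test, 1.66% rising and 2.27% falling. Before adjustment 6 of the 10 had a p under 0.05 with a higher level on fructose, against 8.59% of all genes. All 10 log2 fold changes were positive, against 50.3% of all genes tested, and their median was 0.15, against 0.00085 for all genes. C1ql1 was 1.90 times as high, while the differences of the other 9 lay between 0.07 and 0.32 on the log2 scale. Of the calls, C1ql1 alone held in each of 13 fits with 1 rat left out. C1ql1 was put on the list with its rise already known. In such bulk tissue, more cells of a type and more RNA per cell cannot be told apart.

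**Figure D1:**
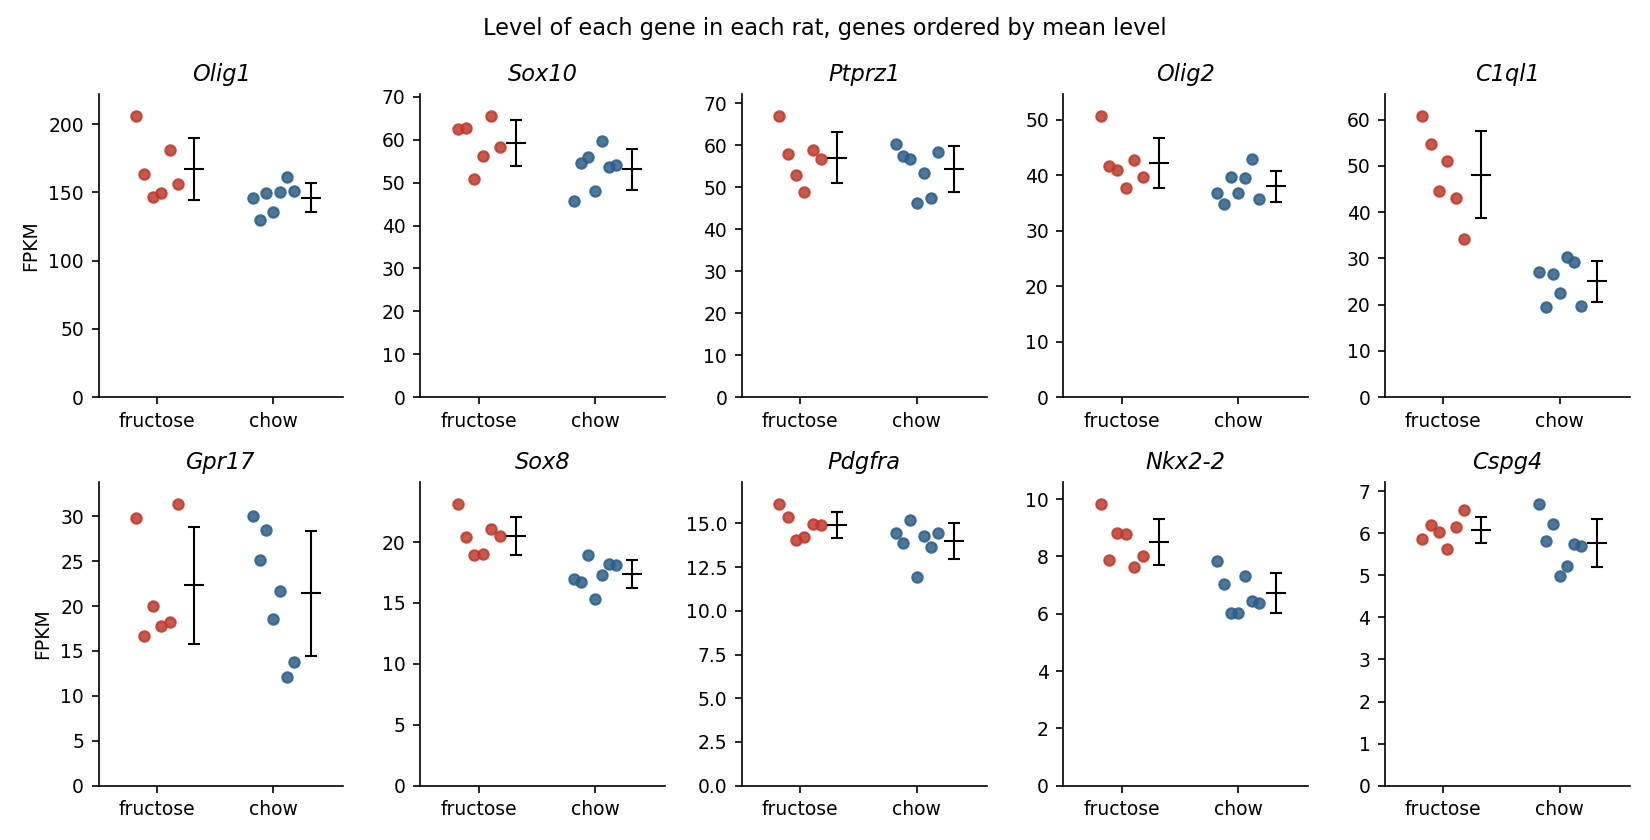
FPKM of the 10 genes (vertical axes, from 0) in each of 6 fructose and 7 chow rats (points), with the mean and SD of each diet as black bars. In C1ql1 every fructose rat, from 34.2 FPKM up, lies above every chow rat, at most 30.2 FPKM, while in Gpr17 the diets overlap almost fully.

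C1ql1 stood at 34.2 FPKM in the lowest, 47.7 in the median and 60.8 in the highest of 6 fructose rats, against 19.5, 26.6 and 30.2 FPKM in the lowest, median and highest of 7 chow rats. The diets did not overlap. Among all genes tested such a separation was seen with fructose higher in 0.879% and with fructose lower in 0.727%. Its mean was 48.0 ± 9.41 FPKM (SD, n = 6) on fructose and 25.0 ± 4.398 FPKM (SD, n = 7) on chow. The log2 fold change was 0.92 ± 0.13 (SE, 95% interval 0.64 to 1.21, limma adjusted p = 0.00390), and the exact two-sided permutation p was 0.000583, the smallest that 1716 splits of the rats allow. By p it stood 15th of all genes tested. With 1 rat left out the fold change lay between 0.85 and 1.02 and the adjusted p between 0.00072 and 0.0150.

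Among the receptors, Pdgfra, which binds platelet-derived growth factor and drives division of precursors, was at 14.0, 14.9 and 16.1 FPKM in the lowest, median and highest fructose rat, against 11.9, 14.3 and 15.2 FPKM in the same places on chow. The diets overlapped, with 2 of 6 fructose rats above all chow rats. Its log2 fold change was 0.09 ± 0.06 (95% interval -0.03 to 0.22, limma adjusted p = 0.433). Ptprz1, a receptor tyrosine phosphatase of precursors and astrocytes that binds pleiotrophin, ran from 49.0 to 67.0 FPKM on fructose and from 46.2 to 60.2 FPKM on chow, a difference of 0.07 ± 0.08 (adjusted p = 0.691). Gpr17, a G protein-coupled receptor of committed precursors, had the widest coefficient of variation of the 10 within each diet. Fructose replicates 1 and 6 were at 29.8 and 31.3 FPKM and the other 4 fructose rats between 16.7 and 20.1 FPKM, while the 7 chow rats were spread over 12.1 to 30.1 FPKM. This coefficient was 29.2% on fructose and 32.5% on chow. Its difference of 0.08 ± 0.22 has a 95% interval of -0.38 to 0.54, the widest of the 10. The proteoglycan Cspg4, which vascular pericytes also carry, had the lowest level of the 10 and ran from 5.63 to 6.56 FPKM on fructose and from 4.98 to 6.68 FPKM on chow (0.07 ± 0.07, adjusted p = 0.663). Of 8 genes on the pericyte list 0 passed limma's test (1 at an unadjusted p under 0.05), and their summed level was 84.3 to 107 FPKM in fructose rats and 92.2 to 101 FPKM in chow rats.

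Nkx2-2, a homeodomain transcription factor that in mouse promotes the step from precursor to myelinating cell, was at 7.64, 8.41 and 9.81 FPKM in the lowest, median and highest fructose rat, against 6.02, 6.45 and 7.83 FPKM on chow. In 5 of 6 fructose rats it was above all chow rats. It rose by 0.32 ± 0.08 on the log2 scale (95% interval 0.15 to 0.49, limma adjusted p = 0.0418, exact permutation p = 0.00233 before adjustment). Its call was kept only without fructose replicate 5 or chow replicate 1. In the other 11 fits with a rat left out it was lost, and the adjusted p reached 0.0950 without fructose replicate 4.

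Sox8, a SoxE transcription factor close to Sox10, was at 18.908, 20.4 and 23.1 FPKM in the lowest, median and highest fructose rat, against 15.4, 17.3 and 18.902 FPKM on chow. The diets did not overlap, but fructose replicate 3 and chow replicate 3 came within rounding of each other. It rose by 0.23 ± 0.06 (95% interval 0.10 to 0.36, limma adjusted p = 0.0474, exact permutation p = 0.00117 before adjustment). This call was kept only without fructose replicate 3, chow replicate 1 or chow replicate 3, and the adjusted p reached 0.101 without chow replicate 2.

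Olig1 and Olig2, basic helix-loop-helix factors encoded side by side in the genome, did not pass. Olig1 had the highest level of the 10, at 147, 160 and 206 FPKM in the lowest, median and highest fructose rat, against 129, 149 and 161 FPKM on chow (0.19 ± 0.08, limma adjusted p = 0.197). Olig2 was at 37.7, 41.3 and 50.7 FPKM on fructose and 34.9, 36.9 and 42.9 FPKM on chow (0.14 ± 0.07, adjusted p = 0.254). Their ratio was nearly fixed, at 3.95 ± 0.22 on fructose and 3.84 ± 0.19 on chow (SD, n = 6 and 7). Sox10, needed for myelin gene expression, was at 50.8 to 65.5 FPKM on fructose and 45.8 to 59.7 FPKM on chow (0.16 ± 0.07, adjusted p = 0.231). For these 3 genes the unadjusted limma p was 0.0283, 0.0474 and 0.0392, a level that 19.2% of all genes reached in either direction.

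**Figure D2:**
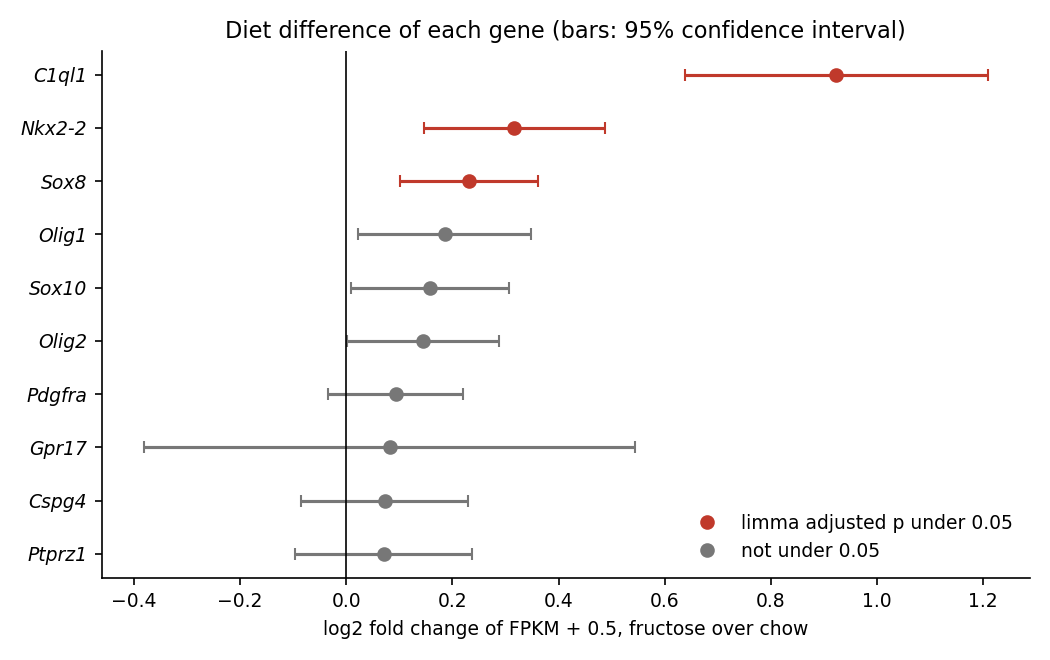
Log2 fold change of FPKM + 0.5, fructose over chow (horizontal axis), for the 10 genes, with 95% confidence intervals from limma over 13 rats. All points lie right of 0, the intervals of Pdgfra, Gpr17, Cspg4 and Ptprz1 cross it, and the interval of C1ql1 (0.64 to 1.21) lies right of all others, of which that of Gpr17 reaches farthest, to 0.54.

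In order of mean level the genes ran Olig1 (156 FPKM over 13 rats), Sox10 (56.0), Ptprz1 (55.6), Olig2 (39.98), C1ql1 (35.6), Gpr17 (21.8), Sox8 (18.8), Pdgfra (14.4), Nkx2-2 (7.54) and Cspg4 (5.91). Several neighbours in this order could not be separated. Sox10 was above Ptprz1 in 7 of 13 rats, Olig2 above C1ql1 in 8 and Gpr17 above Sox8 in 8. The place of C1ql1 relative to Olig2 differed with the diet, since its FPKM was 0.861 to 1.35 times that of Olig2 in fructose rats and 0.552 to 0.766 times in chow rats.

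Fructose replicate 1 had the highest value of all 13 rats in 7 of the 10 genes. The same rat was highest of all on the midbrain dopamine list, at 592 FPKM. Without it the median log2 fold change of the 10 genes was 0.107, 9 were positive, and 1, C1ql1, was called. Chow replicate 4 was the lowest chow rat in 5 of the 10.

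Promoter sequences from RefSeq were at hand for 5 of the 10 genes, Pdgfra, Cspg4, Olig2, Gpr17 and Nkx2-2. Nkx2-2, the member with an entry that rose, and Pdgfra, the defining precursor gene, which did not pass, are shown from 250 bases before to 50 bases after the annotated start, on the minus strand of build GRCr8, at chr3:155075573-155075872 and chr14:33408467-33408766. Capitals mark the 50 bases from the start on.
Nkx2-2: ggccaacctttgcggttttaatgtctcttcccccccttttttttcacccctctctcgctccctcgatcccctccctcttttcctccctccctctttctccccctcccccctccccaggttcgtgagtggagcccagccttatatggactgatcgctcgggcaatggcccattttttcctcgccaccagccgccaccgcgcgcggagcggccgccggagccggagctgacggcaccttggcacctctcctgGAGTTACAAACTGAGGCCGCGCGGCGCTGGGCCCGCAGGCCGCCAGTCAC
Pdgfra: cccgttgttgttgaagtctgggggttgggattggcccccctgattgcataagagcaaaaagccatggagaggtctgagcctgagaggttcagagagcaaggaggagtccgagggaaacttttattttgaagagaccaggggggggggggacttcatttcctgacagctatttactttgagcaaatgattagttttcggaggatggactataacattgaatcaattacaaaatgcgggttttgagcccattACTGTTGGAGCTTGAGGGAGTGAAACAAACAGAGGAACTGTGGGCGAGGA
A search on both strands for the E-box CANNTG, bound by basic helix-loop-helix factors such as Olig2, found 1 place in Pdgfra (CAAATG, beginning 70 bases before the start) and none in these letters of Nkx2-2, where 72.1% of 33365 promoters of this length hold at least 1. The letters AACAAT and ACAAAG, forms that Sox factors bind, were found in neither promoter, and are in 11.7% and 18.8% of promoters. A match describes the sequence and is not a site shown to be bound.

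C1ql1 was then set beside the other 9 genes, to see whether it moved with them. Between diets it exceeded each of them. The difference log2(C1ql1 + 0.5) minus log2(gene + 0.5) within each rat was higher on fructose for all 9 other genes, by 0.61 against Nkx2-2 to 0.85 against Ptprz1, that is 1.52 to 1.81 fold. Each of these differences passed an exact two-sided permutation test with Benjamini-Hochberg adjustment over the 9 ratios, the adjusted p running from 0.00175 to 0.0221. These ratios share C1ql1, whose rise was known when the list was drawn up, and are not 9 separate findings. The adjustment over the 9 ratios does not cover that choice. As an example, the ratio of C1ql1 to Pdgfra in FPKM was 2.297, 3.36 and 3.78 in the lowest, median and highest fructose rat, against 1.37, 1.87 and 2.14 on chow, with no overlap. The ratios to Olig1 and Olig2 did not overlap either, while for that to Gpr17 only 2 of 6 fructose rats exceeded the highest chow rat.

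Within a diet no relation of C1ql1 to the others passed adjustment over the 9 genes. Since the diets form separate clusters in C1ql1, correlations were taken within each diet and over deviations from the diet means. Among 6 fructose rats Pearson r with the 9 genes ran from -0.71 (Cspg4) to 0.56 (Nkx2-2), and 0 of 9 had an exact permutation p under 0.05 before adjustment. Among 7 chow rats r ran from -0.25 (Ptprz1) to 0.83 (Olig2), and 1 of 9, Olig2, had an exact permutation p under 0.05 before adjustment (p = 0.0254, adjusted p = 0.229). Olig2 was the closest over the deviations of all 13 rats, with r = 0.66 (exact permutation p = 0.0226, adjusted p = 0.204 over 9 relations) and Spearman rho = 0.63 (exact permutation p = 0.0380, adjusted p = 0.342). Without the 2 rats whose C1ql1 deviation from the diet mean lay farthest from the median deviation, fructose replicate 6 and chow replicate 2, r was 0.62. Olig1 followed with r = 0.53 and rho = 0.47 (exact permutation p = 0.0855 and 0.135), and r = 0.41 without those rats. Over the same deviations r was 0.30 for Pdgfra and -0.15 for Cspg4 (exact permutation p = 0.344 and 0.636). Inside each diet, r was also taken without the 2 rats farthest from that diet's median C1ql1. Among fructose rats it then changed sign, from 0.54 to -0.39 for Olig2 and from 0.48 to -0.25 for Olig1 (4 rats left). Among chow rats it went from 0.83 to 0.65 for Olig2 and from 0.66 to 0.85 for Olig1 (5 rats left).

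**Figure D3:**
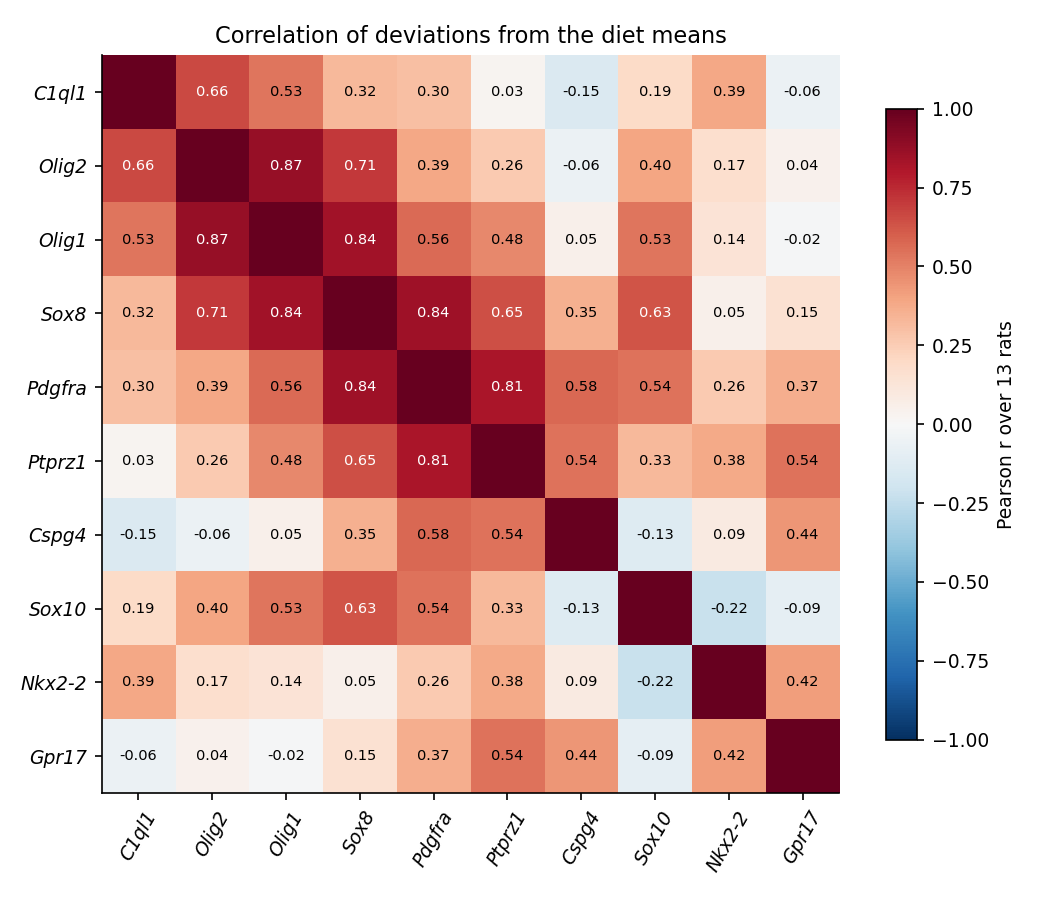
Pearson r between each pair of the 10 genes over 13 rats, taken on deviations of log2(FPKM + 0.5) from the diet means (colour and printed value). Olig1, Olig2 and Sox8 form a block of high r (0.71 to 0.87), Pdgfra is close to Sox8 and Ptprz1, and the C1ql1 row ranges from -0.15 to 0.66.

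Among the 36 pairs of the other 9 genes the same measure had a median of 0.38, and 31 pairs were positive. For C1ql1 with the 9 the median was 0.30, with 7 positive, and for C1ql1 with all other genes tested it was -0.02. Taken without its sign, r of C1ql1 with all other genes tested had a median of 0.24. The closest pairs were Olig1 with Olig2 (0.87), Pdgfra with Sox8 (0.84), Olig1 with Sox8 (0.84) and Pdgfra with Ptprz1 (0.81). Pairs with Nkx2-2 lay between -0.22 (Sox10) and 0.42 (Gpr17). These r describe 13 libraries, in which all genes of a rat share depth and dissection.

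The genes whose deviations were most like those of C1ql1 were none of the 9. Eid1, an inhibitor of differentiation that binds EP300, had r = 0.92, Il2rg, the common gamma chain of interleukin receptors, 0.91, Th, tyrosine hydroxylase of dopamine neurons, 0.89, Slc19a2, a thiamine transporter, 0.88, and Dpysl2, a protein of axon growth, 0.88. These 5 were picked as the highest r among 11836 genes, so their r cannot be set against those of 9 genes taken by name. Of the lineage genes Olig2 stood highest, at 203rd place, with 1.71% of genes at a higher r. For Olig1 that share was 5.56% and for Pdgfra, in 2317th place, 19.6%. It was largest for Gpr17 (54.4%) and Cspg4 (65.1%). Of the 5 genes Th alone passed the diet test. It was at 51.9 to 193 FPKM in fructose rats and 14.1 to 27.8 FPKM in chow rats (2.40 ± 0.24 on the log2 scale, limma adjusted p = 0.000189). Fructose replicate 1 was highest and fructose replicate 6 lowest among fructose rats in both C1ql1 and Th. What part the tissue that carries Th has in the C1ql1 difference was not tested.

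**Figure D4:**
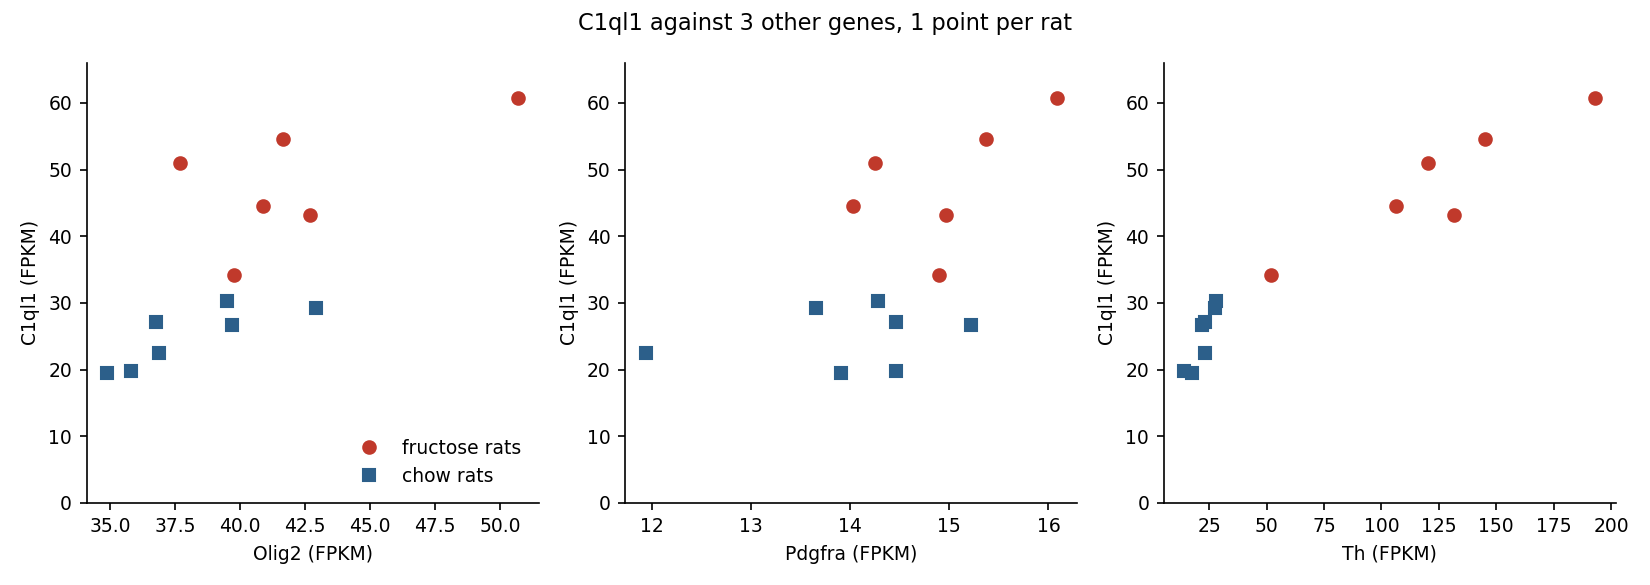
C1ql1 (vertical axis, FPKM) against Olig2, Pdgfra and Th (horizontal axes, FPKM, not starting at 0) in 6 fructose rats (circles) and 7 chow rats (squares). Fructose rats lie above chow rats at the same Olig2 or Pdgfra level, whereas in Th they are separated along both axes.

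Of 17 further precursor genes 13 matched and were tested and 0 passed limma's test (3 at an unadjusted p under 0.05). Bcan, the proteoglycan brevican, was at 127 ± 9.70 FPKM on fructose and 111 ± 6.35 FPKM on chow (adjusted p = 0.0630), and Cspg5, neuroglycan C, at 95.4 ± 8.95 FPKM on fructose and 114 ± 12.5 FPKM on chow (adjusted p = 0.0725). Cacng4, a subunit that accompanies AMPA receptors, was at 28.1 ± 6.62 FPKM on fructose and 31.3 ± 6.50 FPKM on chow. Their median log2 fold change was 0.05, with 9 of 13 positive. Of 13 genes of cell division 10 were tested and 0 passed limma's test (1 at an unadjusted p under 0.05). Mki67, a marker of cycling cells, was at 0.328 ± 0.089 FPKM on fructose and 0.276 ± 0.038 FPKM on chow, under the filter, whereas Pcna, a DNA replication clamp, was at 46.7 ± 5.10 FPKM on fructose and 45.4 ± 5.42 FPKM on chow.

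Further along the lineage, 0 of 13 tested genes of differentiating oligodendrocytes passed limma's test (4 at an unadjusted p under 0.05). Bcas1, a marker of early myelinating cells, was at 204 ± 44.4 FPKM on fructose and 172 ± 26.2 FPKM on chow, Sirt2, a deacetylase, at 206 ± 16.7 and 200 ± 17.4 FPKM on fructose and on chow, and Fyn, a kinase of process outgrowth, at 64.1 ± 3.21 and 69.0 ± 6.96 FPKM on fructose and on chow. Of 20 genes of mature myelin 1 rose by limma's test and 19 did not pass. All 20 had a positive log2 fold change, of at least 0.13 with a median of 0.17, near the 0.15 of the 10 lineage genes. Mbp, myelin basic protein, was at 9210 ± 1531 FPKM on fructose and 7826 ± 1117 FPKM on chow (adjusted p = 0.310), and Apod, a lipid carrier, at 1015 ± 175 FPKM on fructose and 907 ± 186 FPKM on chow.

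**Figure D5:**
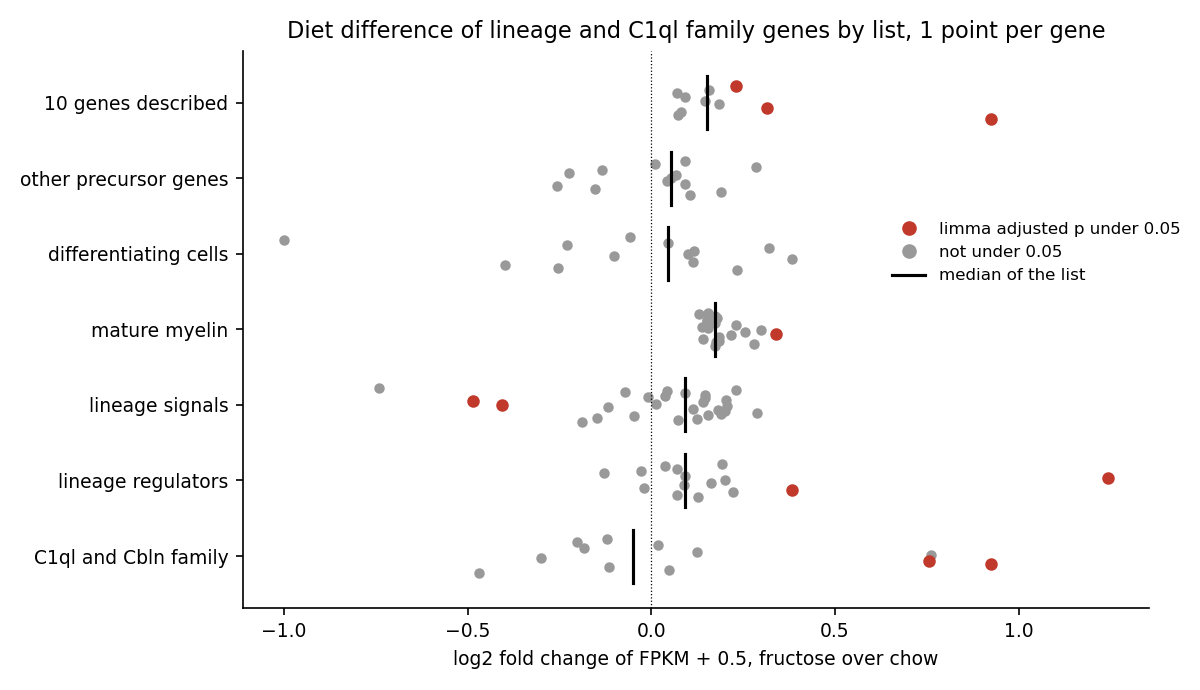
Log2 fold change of FPKM + 0.5, fructose over chow (horizontal axis), of each tested gene in 7 lists (rows), with called genes in red and the median of each list as a black line. The 20 myelin genes all lie at 0.13 or above, while the other precursor genes lie on both sides of 0 around a median of 0.05.

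Among 27 tested genes of signals that act on the lineage 2 fell and 25 did not pass. Igf1, a growth factor that promotes oligodendrocyte survival, fell by 0.41 on the log2 scale to 2.53 ± 0.29 FPKM on fructose, against 3.52 ± 0.51 FPKM on chow (-0.41 ± 0.10, limma adjusted p = 0.0394). Lingo1, a membrane protein of neurons and oligodendrocytes that restrains myelination, was at 54.1 ± 9.51 FPKM on fructose and 75.7 ± 12.9 FPKM on chow (-0.48 ± 0.12, adjusted p = 0.0405). The calls were lost in 9 and 8 of 13 fits with a rat left out, in that order. The ligands of the receptors above did not pass. Pdgfa, the ligand of Pdgfra, was at 31.2 ± 3.81 FPKM on fructose and 30.3 ± 2.18 FPKM on chow (adjusted p = 0.839). Ptn, pleiotrophin, was at 241 ± 20.7 FPKM on fructose and 254 ± 23.3 FPKM on chow, and Cntn1, a cell adhesion protein that binds Ptprz1, at 102 ± 11.5 and 105 ± 13.5 FPKM on fructose and on chow.

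Of 15 tested regulators of the lineage 2 rose. Id2, an inhibitor of basic helix-loop-helix factors, was at 44.2 ± 4.61 FPKM on fructose and 33.8 ± 3.63 FPKM on chow (0.38 ± 0.08, limma adjusted p = 0.0263), a call lost in 5 of 13 fits with a rat left out. Nkx6-1, a homeodomain factor that is also found in midbrain and hypothalamic neurons, was low, at 1.17 ± 0.48 FPKM on fructose and 0.192 ± 0.124 FPKM on chow (1.24 ± 0.19, limma adjusted p = 0.00663). Its fold change was 2.18 with a pseudocount of 0.1 and 0.84 with 1. On chow it was under the filter of 0.5 FPKM and was tested only through the fructose rats, so its rise was partly set by the filter. Hdac2, Smarca4 and Id4, the most abundant of the list, did not pass. The astrocyte list stood higher in every fructose rat, at 4104 to 4398 FPKM against 3717 to 4041 FPKM in chow rats, with Aqp4, a water channel (0.27 ± 0.06), and Gfap (0.62 ± 0.14) passing among 10. Both calls were lost without fructose replicates 4 or 6 or chow replicates 2 or 4, and 1 was lost without chow replicate 5. The neuron list was at 2455 to 2810 FPKM in fructose rats and 2705 to 3126 FPKM in chow rats, with 0 of 10 passing limma's test (2 at an unadjusted p under 0.05). Of its 10 log2 fold changes 0 were positive, with a median of -0.18, and 4 of 6 fructose rats lay below all chow rats in the sum. The part of these shifts in the values of the lineage genes was not tested.

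Relatives and receptors of C1ql1 were read from a list of 13 genes, of which 12 were tested. C1ql1 and C1ql2, a neuronal member of the family, rose and 10 did not pass. C1ql2 was at 14.5 ± 2.94 FPKM on fructose and 8.71 ± 3.40 FPKM on chow (0.76 ± 0.20, limma adjusted p = 0.0486), a call kept only without chow replicate 1 or chow replicate 4. C1ql4 was at 2.39 ± 0.90 FPKM on fructose and 1.20 ± 0.53 FPKM on chow (0.76 ± 0.25, adjusted p = 0.101), and C1ql3 at 21.9 ± 5.28 FPKM on fructose and 27.4 ± 6.52 FPKM on chow (-0.30 ± 0.18). The receptor Bai3 was at 17.1 ± 0.94 FPKM on fructose and 18.6 ± 1.48 FPKM on chow (-0.12 ± 0.06, adjusted p = 0.322). Bai1, a related receptor, was at 92.3 ± 16.6 FPKM on fructose and 129 ± 26.4 FPKM on chow (adjusted p = 0.0766). Cbln1 and Bai2, the other abundant genes of the list, differed by 0.12 ± 0.13 and 0.05 ± 0.07.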

How the data were processed

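RNA of whole hypothalamus was measured in 13 rats, 6 on fructose and 7 on chow, in mRNA libraries made from total RNA. The deposited values are FPKM, 1 column per rat, and the submitters' processing notes name STAR 2.3.0e, Cufflinks 2.1.1, Cuffdiff and build rn5. Settings and scaling between libraries are not stated in them. No read counts were used and depth is unknown beyond the rough relative estimate, so precision rests on the spread between rats. Columns were matched by title and diets taken from the labels. Replicates were numbered in accession order, and are names only. Whether cage mates were independent is unknown.

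Genes averaging 0.5 FPKM or more over the 13 rats were tested on log2(FPKM + 0.5), a scale that understates changes of low genes, by two-sided limma tests (version 3.58.1, R 4.3.3) with trended empirical Bayes, Benjamini-Hochberg adjusted over all genes. A gene was called at an adjusted p under 0.05. The error given is the SD for FPKM and the SE for log2 fold changes. Permutation tests over the 1716 splits of 6 and 7 rats, and over all pairings within diets for correlations, were exact. The fit was tested on simulated data. Gene names were matched without locus suffixes, and the Bai genes are named as in the table.

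The members and gene lists were chosen with earlier results of these data known, and the hypothalamic list was added after the values of the members were seen. Named genes are the 10 members, up to 6 called genes and the 3 most abundant of each list (some are not reported here), and the 5 genes most like C1ql1. Pdgfa, Bai3, C1ql3, C1ql4 and Mki67 were named beyond that rule, after their values were seen. Alternatives tried were a pseudocount of 0.1 or 1, testing all genes or those averaging 2 FPKM or more, median-ratio scaling, quantile normalization, robust empirical Bayes, array weights, calling at an adjusted p under 0.1, testing each gene by permutation and leaving out each rat.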

Additional observations from a re-analysis of the deposited data

How the results depend on the processing

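The number of genes that differed over the whole table, 466, became 308 with no filter on low values, 1019 with array weights, 915 at an adjusted p under 0.1 and 0 by the exact permutation test per gene (2223 at an unadjusted p under 0.05), and ran from 83 to 859 with 1 rat left out. Of the 10 lineage genes the 3 calls became 1 with no filter, where 14412 genes were tested, 0 by the permutation test (5 at an unadjusted p under 0.05, C1ql1 at an adjusted p of 0.0663) and 1 to 3 with 1 rat left out. They stayed at 3 under the other alternatives. C1ql1 lost its call only by the permutation test. There its unadjusted p of 0.000583 was already the smallest that the splits of the rats allow. At this p the adjusted p was still 0.0663, and a call would have needed more genes at this p or a little above it. For C1ql1, which could reach no smaller p, the 0 calls of this test cannot decide whether its limma call holds. Sox8 and Nkx2-2 were above the smallest permutation p, at 0.00117 and 0.00233, and did not pass this test (adjusted p = 0.0738 and 0.0899). The fold change of C1ql1 was 0.89 to 0.94 over the alternatives other than leaving out a rat. Gpr17 ran from -0.040 to 0.17 with 1 rat left out, and no other fold change of the 10 genes turned. All 9 ratios of C1ql1 passed under every alternative tried for them. They share the rise for which C1ql1 was listed, so this is not separate support. Of the within-diet correlations 0 passed, or 1 without fructose replicate 4 (Olig2, r = 0.80, adjusted p = 0.0362), a range of 0 to 1 with 1 rat left out. With 1 rat left out r with C1ql1 changed sign for Cspg4 (-0.31 to 0.041), Gpr17 (-0.24 to 0.21) and Ptprz1 (-0.26 to 0.16). The cause of these shifts was not tested. No paired analysis was possible because the replicate numbers come from accession order. Depth is unknown, and Gpr17 had the widest confidence interval of the 10 genes.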
